A study of Drosophila melanogaster with 7 samples.

Results

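The genes described here serve protein entry, folding and quality control in the endoplasmic reticulum (ER) of Drosophila melanogaster brains. They were taken from a list of 34 symbols by a rule that used names and not measured values. The rule kept a symbol where its line in the deposited expression table was intact, and 28 of the 34 were kept, out of 14476 intact gene lines in all. Gp93, Edem2, Der-1 and Trp1 stand on damaged lines of that table, and Sil1 and Spase18-21 have no line under those symbols. These 6 are not part of the counts below.

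A secreted or membrane protein enters the ER through the Sec61 channel, loses its signal peptide to signal peptidase and receives sugar chains from oligosaccharyltransferase. Chaperones and disulfide-forming enzymes then fold it, and proteins that fail to fold are sent back to the cytosol for degradation. When unfolded proteins build up, the membrane proteins Ire1, PEK and Atf6 start the unfolded protein response, in which the transcription factors Xbp1 and crc (the fly ATF4) act downstream. Neurons and glia use this route for receptors, adhesion proteins and neuropeptides.

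Total RNA of dissected brains was sequenced at transcript 3' ends in 5 control libraries and 2 knockdown libraries, all titled day 3. Control flies carried Actin-GAL4 and UAS-sh8MM, a hairpin with 8 mismatches, and knockdown flies carried Actin-GAL4 and UAS-sh-circMbl, directed at circMbl, a circular RNA of the muscleblind gene. Both groups thus share the driver, which is active throughout the body, so neither hairpin is restricted to brain cells. The labels give neither sex nor the number of brains per library, nor whether the libraries come from different flies, so p-values measure only the spread between the libraries at hand, some or all of it possibly technical.

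The libraries held from 3260649 to 5546121 counted reads in the intact lines. The titles carry codes that are read here as a date code and a lane code, a reading the labels do not state. Both knockdown libraries have 1 date code and lane code L2. All controls have another date code, with lane codes L5 (control replicates 2 and 3) and L7 (control replicates 1, 4 and 5). Date and lane code therefore cannot be told apart from genotype, and the knockdown differences of genes that passed against either lane code are given below also against the controls of each. Summed levels of 6 neuron markers lay between 33956 and 38629 normalized counts in the controls and between 43523 and 46585 in the knockdown libraries. The synaptic gene nSyb alone of these passed limma, rising from a mean of 4844 to 11826, and without it the sums overlapped (29722 to 33303 and 32331 to 34125). Those of 5 glia markers lay between 56603 and 71109 in the controls and between 74800 and 81900 in the knockdown libraries. None of the 5 passed limma (1 at an unadjusted p under 0.05, beside 1857 of all 7287 genes tested, and 0 by voom). Gs2 made up between 92.4% and 94.9% of the glia sum, and without it the sums overlapped (3727 to 5390 and 3893 to 4184). The glia marker at an unadjusted p under 0.05 was moody, with means of 1046 in the controls and 665 in the knockdown libraries. It held 820.5 and 680.1 in the L5 controls, 1351, 1222 and 1155 in the L7 controls, and 657.7 and 672.3 in the knockdown libraries, near the L5 controls. In both knockdown libraries moody and alrm lay below all controls (40% of the glia markers, beside 15.9% of all genes tested). Gs2 lay above all controls (20%, beside 16.6%). The glial marker repo is not analysed here.

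Of the 28 ER genes, 2 rose and 1 fell in knockdown brains, and 25 did not pass (limma on log2(value + 1), p adjusted over the 7287 genes that averaged 10 or more normalized counts, threshold 0.05). The risers were the chaperone gene Hsc70-3, the fly BiP, and Tapdelta, part of the translocon-associated (TRAP) complex, and the gene that fell was Herp, which encodes a membrane factor of ER-associated degradation. Over all genes tested, 3.47% were called higher and 2.63% lower, against 7.14% and 3.57% of the ER genes, so these shares rest on 3 genes. The median log2 fold change of the ER genes was 0.02, beside -0.02 over all genes tested. In bulk brain RNA, a change in the number of cells of a type and one in RNA per cell cannot be told apart. None of the 3 calls held without knockdown replicate 1 or without knockdown replicate 2 (adjusted p from 0.107 to 0.22 in these fits, which set 1 library against 5 and take its spread to be that of the controls). In each of these fits 1 gene of all 7287 was called higher and 0 lower, and the log2 fold changes were 0.91 and 0.98 for Hsc70-3, 1.39 and 1.65 for Tapdelta and -0.97 and -1.01 for Herp.

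Among the chaperones, Hsc70-3 (FBgn0001218, X from 11801696 to 11807117, minus strand, BDGP6, the dm6 coordinates) binds newly imported chains and holds the stress sensors inactive. It held 546.1 and 523.5 normalized counts in the L5 controls, 688.3, 698.2 and 526 in the L7 controls, and 1171 and 1116 in the knockdown brains. Both knockdown libraries lay above every control, and the controls themselves fell into a higher pair (replicates 1 and 4) and a lower trio. The control mean was 596.4 ± 88.9 (SD, n = 5), the knockdown mean was 1143 ± 39.2 (SD, n = 2), and the log2 fold change was 0.95 ± 0.16 (SE), a factor of 1.93 (limma, adjusted p = 0.0154). The difference was 1.09 on the log2 scale against the L5 controls (adjusted p = 0.000585) and 0.85 against the L7 controls (0.000513); here limma treated the libraries as 3 groups, knockdown, L5 and L7, called the fit of 3 groups below.

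The other chaperones did not pass. Calr (calreticulin) and Cnx99A (calnexin) are the lectin chaperones that hold glycoproteins during folding, the former in the lumen and the latter in the membrane. Controls held between 278.1 and 321.8 normalized counts of Calr, and the knockdown brains 344.4 and 347.1. The groups did not overlap, but the log2 fold change was only 0.22 (95% interval from -0.05 to 0.49; limma, adjusted p = 0.295). In the L5 controls Cnx99A held 781.2 and 742 normalized counts, in the L7 controls 1206, 1449 and 1034, and with the hairpin against circMbl 860.4 and 762.5, which thus lay among the controls. Manf, a secreted ER-resident factor named for its protection of dopamine neurons, had a log2 fold change of 0.24 (limma, adjusted p = 0.391), and its groups overlapped. The normalized count of Hsc70-3 per normalized count of Calr, a ratio picked after its values were seen, was between 1.63 and 2.31 in the controls and was 3.4 and 3.21 in the knockdown libraries.

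**Figure D1:**
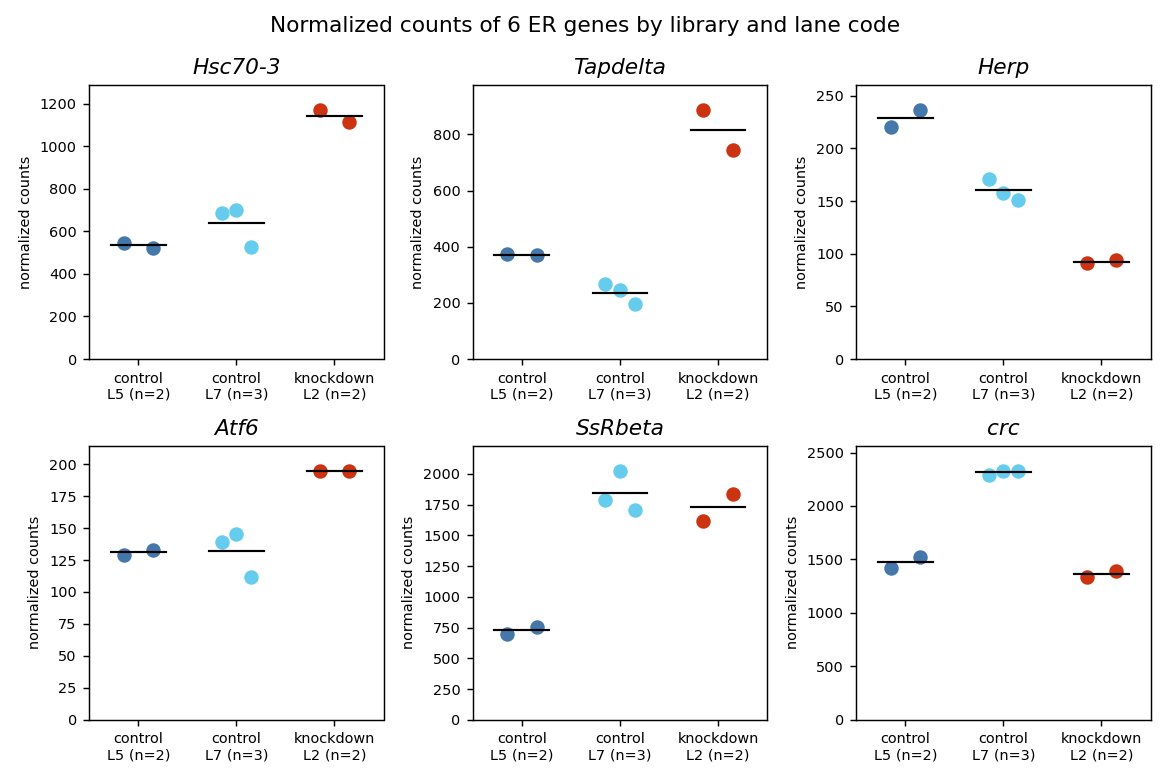
Normalized counts (vertical axes, from 0) of 6 ER genes in each library, with controls split by lane code; points are libraries and bars are group means. Hsc70-3, Tapdelta and Atf6 lie higher in both knockdown libraries than in any control and Herp lies lower, whereas SsRbeta and crc separate the L5 from the L7 controls and the knockdown libraries sit beside 1 of these sets.

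Among the translocon genes, Tapdelta (FBgn0021795, 2R from 11370300 to 11371335, minus strand) had the largest difference over all controls and against L7, whereas against L5 that of SsRbeta was larger. Its protein belongs to the translocon-associated complex, which sits beside Sec61 and aids the entry of some chains. Normalized counts of Tapdelta were 375 and 369.6 (L5 controls), 267.6, 245 and 197.6 (L7 controls) and 887.7 and 744.2 (knockdown). The lowest knockdown value was above the highest control, and both L5 controls lay above all L7 controls. The control mean was 291 ± 78.5 (SD, n = 5) and the knockdown mean 816 ± 101 (SD, n = 2), with a log2 fold change of 1.52 ± 0.25 (SE), or 2.87-fold (limma, adjusted p = 0.0151). In the fit of 3 groups it was 1.12 against L5 (adjusted p = 0.000757) and 1.79 against L7 (1.6e-05).

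The other measured subunit of that complex, SsRbeta, behaved differently across lane codes. It held 696.1 and 757.5 normalized counts in the L5 controls, 1791, 2027 and 1705 in the L7 controls, and 1619 and 1839 in the knockdown brains. Knockdown values overlapped the L7 controls and lay above both L5 controls, and the log2 fold change over all controls was 0.45 ± 0.42 (SE; limma, adjusted p = 0.554). It was 1.25 against L5 (limma, adjusted p = 0.000126) and -0.09 against L7 (0.542). The normalized count of Tapdelta per normalized count of SsRbeta, also picked after its values were seen, was 0.539 and 0.488 in the L5 controls, between 0.116 and 0.149 in the L7 controls, and 0.548 and 0.405 in the knockdown libraries. That ratio separated lane codes and did not separate knockdown from L5 controls.

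The Sec61 channel genes and their partners did not pass. Sec61alpha forms the pore, and Sec61beta and Sec61gamma are its small subunits. Their log2 fold changes were -0.08 (95% interval from -0.55 to 0.38) for Sec61alpha, 0.20 (from -0.10 to 0.50) for Sec61beta and 0.05 (from -0.21 to 0.32) for Sec61gamma. In the L5 controls Sec61alpha held 139.9 and 140.2 normalized counts, in the L7 controls 223.2, 189.1 and 192.6, and with the hairpin against circMbl 166.4 and 162, between the 2 lane codes of the controls. TRAM, a membrane protein that contacts entering chains, held 184.6 and 183.9 in the knockdown libraries and at most 172 in the controls. Its log2 fold change of 0.27 did not pass (limma, adjusted p = 0.268). Sec63, the membrane J protein that brings the BiP chaperone to the channel, had a log2 fold change of 0.17 with overlapping groups (limma, adjusted p = 0.535).

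Signal peptidase and oligosaccharyltransferase genes gave no call in the comparison of all libraries. Of the peptidase subunits, Spase22-23 held 144.5 and 132 normalized counts in the L5 controls, 116.7, 126.4 and 134.2 in the L7 controls, and 163.8 and 177.8 in knockdown brains, with no overlap. Its log2 fold change was 0.39 (limma, adjusted p = 0.128), and it passed against L7 (0.44, adjusted p = 0.023) and not against L5 (0.30, adjusted p = 0.152). Normalized counts of Spase25 were 177.5 and 167.5 (L5 controls), 182, 207 and 224.7 (L7 controls) and 234 and 215.6 (knockdown), which overlap. Spase12 held 86.9 and 74.7 normalized counts in the L5 controls, 127.6, 132 and 139.1 in the L7 controls, and 118.3 and 124.2 in the knockdown brains. The knockdown values of Spase12 lay between those of the L5 and the L7 controls.

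Of the sugar-transferring enzyme, OstStt3, with the current symbol Stt3B, is a catalytic subunit. Normalized counts of OstStt3 were 506.7 and 387.8 (L5 controls), 455, 467.7 and 474.1 (L7 controls) and 430.2 and 476.2 (knockdown), which overlap. Its log2 fold change was -0.01 with a 95% interval from -0.32 to 0.30. In the L5 controls Ost48 held 253.4 and 258.6 normalized counts, in the L7 controls 178.1, 164.5 and 163, and with the hairpin against circMbl 148.2 and 143.7. Both knockdown values of Ost48 lay below all controls, but near the L7 controls, and the log2 fold change of -0.45 did not pass (limma, adjusted p = 0.242). OstDelta was also below all controls in both knockdown libraries, at 137.8 and 130.3 against a lowest control of 139.9 (a log2 difference of -0.20; limma, adjusted p = 0.408).

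Of the degradation genes, Herp (FBgn0031950, 2L from 7796314 to 7800058, minus strand) fell. Its normalized counts were 220.4 and 236.7 (L5 controls), 171.1, 157.8 and 151.5 (L7 controls) and 91 and 93.8 (knockdown). The knockdown libraries lay below every control, and the L5 controls lay above the L7 controls. Controls averaged 187.5 ± 38.6 (SD, n = 5) and knockdown brains 92.4 ± 1.98 (SD, n = 2), and the log2 fold change was -0.99 ± 0.20 (SE), or 1.99-fold lower (limma, adjusted p = 0.0288). It was -1.30 against L5 (adjusted p = 0.000239) and -0.79 against L7 (0.000769) in the fit of 3 groups. The lowest of these values rests on 70 reads, a counting error of 12%, and by voom on reads recovered from the table the call was lost (adjusted p = 0.0525; 0.000203 to 0.22 over the alternatives tried) at a log2 fold change of -1.02, about that of limma.

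The other degradation genes did not pass. Der-2, a derlin that takes part in moving proteins out of the ER, held 103.4 and 133.8 normalized counts in the L5 controls, 136.1, 122 and 140.8 in the L7 controls, and 185.9 and 158.3 in knockdown brains. These lay above every control (a log2 difference of 0.44; limma, adjusted p = 0.139), and Der-2 passed against L5 (0.54, adjusted p = 0.0415) and not against L7 (0.37, adjusted p = 0.0861). Edem1, which acts in picking glycoproteins for degradation, held 39 and 46.3 in the knockdown libraries and at least 47.3 in the controls. Its log2 fold change of -0.33 did not pass (limma, adjusted p = 0.348), and its lowest library held 30 reads.

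The enzymes of oxidative folding did not pass. Pdi, the protein disulfide isomerase, held 739.1 and 847.6 normalized counts in the L5 controls, 896.8, 880.6 and 785.3 in the L7 controls, and 734.4 and 673.6 in the knockdown brains. Both of the latter lay below the lowest control, the first only just, and the log2 fold change was -0.23 (95% interval from -0.52 to 0.05; limma, adjusted p = 0.284). ERp60, a related isomerase, had -0.15, and Ero1L, the oxidase that recharges Pdi, had -0.07, with overlapping groups for both.

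No sensor or downstream factor of the unfolded protein response passed limma in the comparison of all libraries (0 by voom). By limma 1 of 5 was at an unadjusted p under 0.05, beside 1857 of all 7287 genes tested. The one was Atf6, the sensor that is cut in the Golgi to release a transcription factor. It held 129 and 132.9 normalized counts in the L5 controls, 139.2, 145.5 and 111.9 in the L7 controls, and 195 and 194.9 in the knockdown brains. Both knockdown values exceeded every control, and the log2 fold change was 0.57 ± 0.15 (SE; limma, adjusted p = 0.0538). In the fit of 3 groups it passed against L5 (0.57, adjusted p = 0.0249) and against L7 (0.57, adjusted p = 0.0103), and the L7 controls differed from the L5 controls by 0.005. Over the alternatives tried its adjusted p ran from 0.00929 to 0.297.

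Ire1 and PEK are the kinase sensors, the former also the nuclease that splices the Xbp1 transcript and the latter the kinase that slows translation. In the L5 controls Ire1 held 109.8 and 126.6 normalized counts, in the L7 controls 159.4, 194.7 and 182.7, and with the hairpin against circMbl 130 and 137.6. PEK ranged from 101.2 to 121.7 over the controls and held 100.1 and 93.8 in knockdown brains (a log2 difference of -0.21; limma, adjusted p = 0.419). Normalized counts of Xbp1 were 444.5 and 559 (L5 controls), 780.9, 869.4 and 824.8 (L7 controls) and 414.6 and 535.9 (knockdown). Knockdown values of Ire1 and Xbp1 lay with or near the L5 controls and below every L7 control. Counts per gene do not show splicing of Xbp1, which therefore was not measured.

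The level of crc showed the same layout. It held 1423 and 1522 normalized counts in the L5 controls, 2290, 2326 and 2331 in the L7 controls, and 1335 and 1392 in the knockdown brains. The knockdown libraries lay a little below the L5 controls and far below the L7 controls. The log2 fold change was -0.50 ± 0.23 (SE; limma, adjusted p = 0.201) over all controls, -0.11 against L5 (adjusted p = 0.415) and -0.76 against L7 (0.0001). The annotation places CG46314 on the same strand over 2515 exon bases of crc, and CG46314 held between 98.1% and 99.4% as many reads as crc in every library, so the counts of these genes cannot be told apart.

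**Figure D2:**
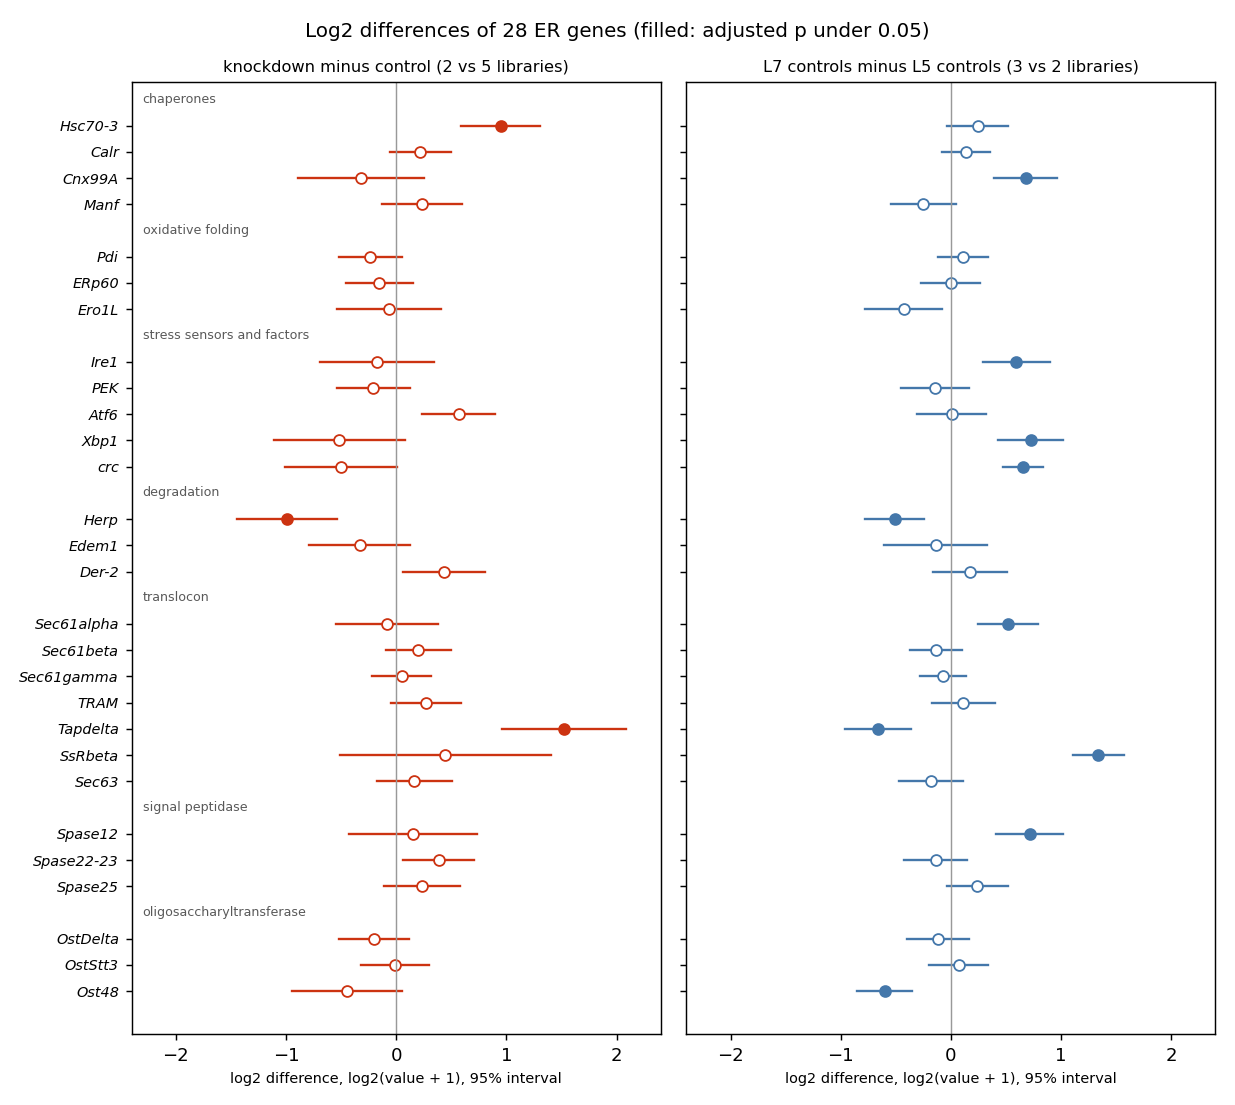
Log2 differences of the 28 ER genes grouped by role, with 95% intervals from limma, for knockdown minus control (left) and for L7 minus L5 controls in the fit of 3 groups (right); filled points passed an adjusted p of 0.05. Tapdelta, Hsc70-3 and Herp are filled on the left, and 10 genes are filled on the right, SsRbeta with the largest difference (1.34).

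The controls differed among themselves by lane code in 10 of the 28 ER genes, 7 higher and 3 lower in L7 (limma, fit of 3 groups, adjusted p under 0.05). This is 25% and 10.7% of the ER genes, beside 16.9% and 11.3% of all genes tested. Those higher in L7 were SsRbeta (log2 difference 1.34, adjusted p = 1.1e-05), Xbp1 (0.72), Spase12 (0.71), Cnx99A (0.68), crc (0.65), Ire1 (0.59) and Sec61alpha (0.52). Those lower in L7 were Tapdelta (-0.66), Ost48 (-0.60) and Herp (-0.51). Tapdelta and Herp are thus among both the knockdown calls and the lane code differences, while Hsc70-3 did not pass between lane codes (0.24, adjusted p = 0.176).

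Against the L5 controls, in the fit of 3 groups, 6 ER genes were higher and 2 lower in the knockdown. That is 21.4% and 7.14%, beside 12.1% and 9.47% of all genes tested. The higher ones were SsRbeta, Tapdelta, Hsc70-3, Spase12 (0.58, adjusted p = 0.0202), Atf6 and Der-2, and the lower ones Herp and Ost48 (-0.81, adjusted p = 0.0016). Against the L7 controls, 4 were higher and 5 lower, 14.3% and 17.9% beside 15% and 18.5% of all genes tested. The higher ones were Tapdelta, Hsc70-3, Atf6 and Spase22-23. The lower ones were Herp, Xbp1 (-0.80, adjusted p = 0.00106), crc, Cnx99A (-0.59, adjusted p = 0.00581) and Ire1 (-0.41, adjusted p = 0.0389). Some of these genes did not pass against the other lane code. Against L7 the log2 difference was -0.13 for Spase12 and -0.205 for Ost48. Against L5 it was -0.08 for Xbp1, 0.09 for Cnx99A and 0.18 for Ire1. The comparisons against L5 and against L7 share the knockdown libraries. The 15 ER genes that passed against neither lane code had log2 differences between -0.42 (Edem1) and 0.38 (Spase25) against L5, and between -0.29 (Sec61alpha) and 0.34 (Manf) against L7. In 4 ER genes the knockdown passed against each lane code with 1 sign, Hsc70-3, Tapdelta, Atf6 and Herp, which is 14.3% beside 11.1% of all genes tested.

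Both knockdown libraries lay above all controls in 7 ER genes and below all controls in 7, 25% each, beside 16.6% and 15.9% of all genes tested. The 7 above were Hsc70-3, Calr, Atf6, Der-2, TRAM, Tapdelta and Spase22-23. The 7 below were Pdi, PEK, crc, Herp, Edem1, OstDelta and Ost48. By role, the median log2 fold change was 0.23 for 4 chaperones, 0.20 for 7 translocon genes and 0.23 for 3 signal peptidase genes. It was -0.15 for 3 oxidative folding genes, -0.21 for 5 sensors and factors, -0.33 for 3 degradation genes and -0.20 for 3 oligosaccharyltransferase genes. The sensors and factors had a median of -0.08 against L5 and -0.41 against L7, and a median difference of 0.59 between L7 and L5 controls.

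**Figure D3:**
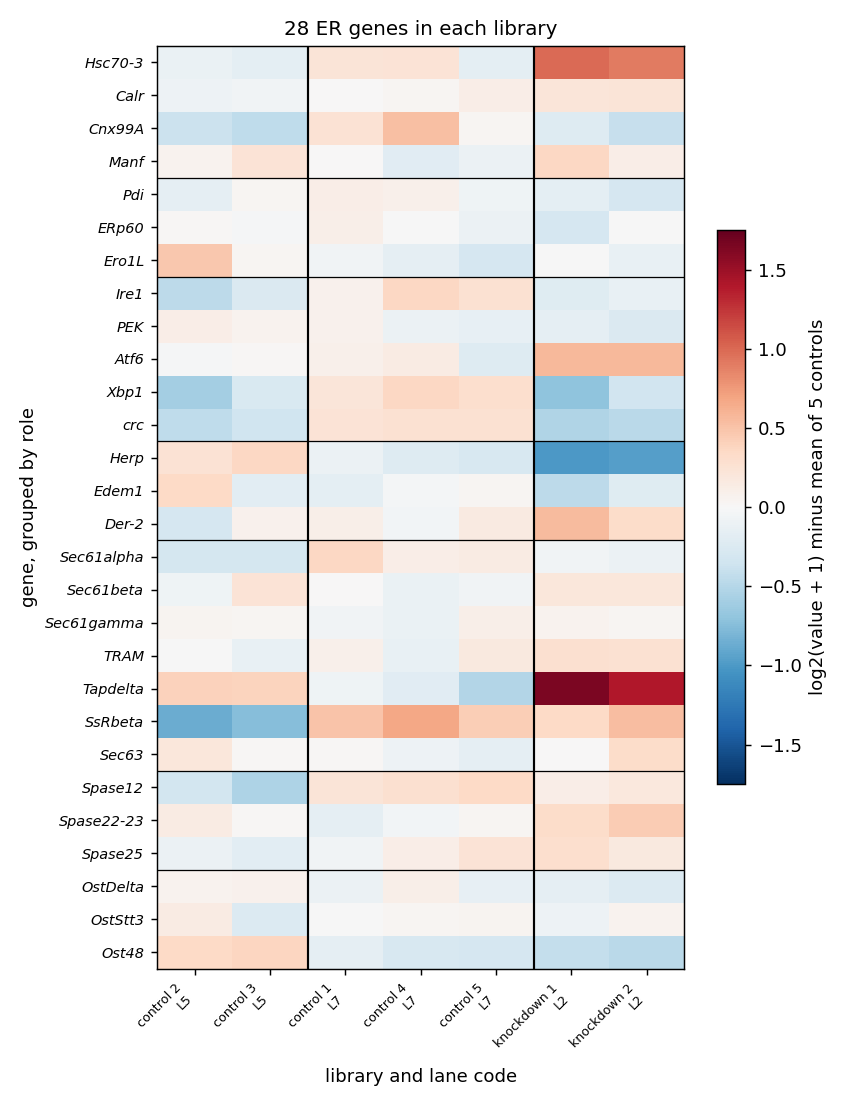
Each of the 28 ER genes (rows, grouped by role) in each library (columns, ordered by lane code), coloured by log2(value + 1) minus the mean of the 5 controls. The knockdown columns stand out in Hsc70-3, Tapdelta, Atf6 and Herp, and the L5 columns differ from the L7 columns in SsRbeta, Xbp1, crc and Cnx99A.

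Genes of neighbouring steps were read from lists of the signal recognition particle, other folding and glycan-trimming enzymes, other degradation factors, coat II vesicles and the eIF2 kinase branch. Of 56 genes listed 38 were tested, and none of them passed limma in the comparison of all libraries (0 by voom). By limma 10 of the 38 were at an unadjusted p under 0.05, beside 1857 of all 7287 genes tested. The median log2 fold change of the 38 was -0.13. Against each lane code, with 1 sign, 5 of the 38 passed, or 13.2% beside 11.1% of all genes. Named after their values were seen, they were GCS2alpha, the glucosidase II catalytic subunit (a log2 difference of 0.44 from all controls), the cargo receptor gene ergic53 (0.61) and the cargo gene p24-1 (0.63), which were higher. The lower ones were GCS1, the glucosidase I gene (-0.48), and PPP1R15 (-0.39), whose protein reverses the phosphorylation of eIF2 alpha that PEK brings about. Of these 5, p24-1 also differed between lane codes (L7 minus L5 0.63, limma in the fit of 3 groups, adjusted p = 0.00112). Disulfide isomerase gene CaBP1 differed between lane codes too (-0.79, adjusted p = 0.00156) and did not pass against L5 (-0.04, adjusted p = 0.876). Between lane codes 8 of the 38 were higher and 6 lower in L7. That is 21.1% and 15.8%, beside 16.9% and 11.3% of all genes tested.

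Markers of the fat body, another tissue, lay higher in the knockdown libraries beside the ER genes that rose. The summed level of 9 fat body and hemolymph markers, tissue that secretes heavily, was between 14958 and 36059 normalized counts in the controls and between 44114 and 50274 in the knockdown libraries. Of 7 tested members 3 rose (Yp3, fit and tobi), or 42.9% beside 3.47% of all genes tested. Both knockdown libraries lay above all controls in 85.7% of the tested members, beside 16.6% of all genes tested. The yolk protein genes Yp1 (means of 8871 in the controls and 18336 in the knockdown libraries) and Yp2 (10508 and 19099) and the storage protein gene Lsp2 (100.8 and 451) lay above all controls in both knockdown libraries without passing. Obp99b overlapped (53.5 and 47.8), and Fbp1 (0.2 and 0.6) and Mal-A1 (2 and 1.3) were near 0 in both groups. Control replicate 2, which held the highest sum of the controls, 36059, held 546.1 of Hsc70-3 and 375 of Tapdelta, its highest control value. Control replicate 4, next with 26993, held 698.2 of Hsc70-3, its highest control value, and 245 of Tapdelta. The part of fat body RNA in the higher Hsc70-3 and Tapdelta was not tested. The labels give no sex, and a part of sex in these marker levels was not tested either. Sums of 4 hemocyte markers were 406 to 488 in the controls and 375 to 404 in the knockdown libraries, which lay below all controls, 1 of them only just. Those of 6 muscle markers (974 to 1650 and 753 to 1065) and of 8 photoreceptor markers (3371 to 6133 and 3690 to 6413) overlapped.

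Some ER genes share exon bases with a neighbour, and the strand setting of the authors' counting is not given in the sources used here. Ire1 shares 496 bases of its 3' end with MICU3 on the opposite strand, Spase12 shares 386 of its last 500 bases with CG2006, and Spase22-23 shares 197 bases with CG13609. Atf6 shares 396 exon bases, 287 of them in its last 500, with an INE-1 transposable element on the same strand. Their reads could include reads of the neighbour. The annotation shows no exon overlap for Hsc70-3, Tapdelta or Herp. The gene twr, which RefSeq lists with the synonym Spase18-21, ranged from 126.4 to 237.8 normalized counts over the controls and held 224.9 and 235.1 in knockdown brains (a log2 difference of 0.43; limma, adjusted p = 0.266). CG10420, a synonym of Sil1, the exchange factor of the BiP chaperone, ranged from 22.4 to 45.5 over the controls and held 35.1 and 31.7 in knockdown brains, with a log2 fold change of 0.05 (limma, adjusted p = 0.933).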

How the data were processed

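Total RNA from dissected brains was turned into CEL-seq2 libraries, adapted for bulk RNA, which read transcript 3' ends, per the labels' protocols. Per the submitters' processing notes, STAR and dm6 were used. How reads were counted, and with which gene models and strand setting, is not given in the sources used here. In 1 table the authors deposited normalized counts, a signal whose making is not described further. In all 14476 intact lines used, values were whole multiples of 1 step per library (100% within 0.05 of a read), which gave the depths. Not used were 2139 damaged lines, 1 line with a damaged name and 402 columns without a sample. Columns were matched to samples by title.

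Values were log2-transformed after adding 1. Genes averaging 10 or more (7287, all 28 ER genes among them) were tested with limma 3.58.1 (R 4.3.3, mean-variance trend, Benjamini-Hochberg), 2 knockdown against 5 control libraries without covariates, and as 3 groups (knockdown, L5, L7). Fold changes refer to log2(value + 1), which understates low genes. Positions come from the Ensembl BDGP6 annotation, in dm6 coordinates. Fits were tested on simulated data. The genes, lists and tests were chosen with earlier results of these data known. Every ER gene found is named. Values per library are given for those past a test between knockdown and control or between lane codes, for the most abundant of each role, and for Atf6, picked after its values were seen. Control replicates 2 and 4 share a title number, as do 3 and 5, and whether such pairs share RNA is not stated. The SDs, SEs and main fit count the 5 controls as separate. Of genes picked after their values were seen, ninaE held 1840 and 2072 in replicates 2 and 4, and 445.2 and 459.3 in 3 and 5. Rh3 held 165.6 and 214.8, and 59.2 and 50.2. Arr2 was less alike within pairs (1530 and 966.7, and 975.1 and 605). Knockdown replicates 1 and 2 held 599.2 and 1920 of ninaE. Sharing of RNA was not tested.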

Additional observations from a re-analysis of the deposited data

How the results depend on the processing

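With either knockdown library left out none of the 3 ER calls passed limma (adjusted p of Hsc70-3 0.186 without knockdown replicate 1 and 0.116 without replicate 2, in a range of 0.000299 to 0.186 over its alternatives). Leaving out single libraries gave 0 to 2 higher and 0 to 1 lower genes, and 8 to 11 genes that differed between lane codes. Every one of the 3 calls kept its direction under all 20 alternatives tried. In these genes both knockdown libraries lay beyond every control, so leaving out, selecting or averaging libraries could not have changed the direction. Counts of higher and lower ER genes were 6 and 4 against the mean of both lane codes in the fit of 3 groups (13.6% and 14.1% of all genes), 4 and 2 with L5 controls only (8.89% and 5.96%), 4 and 5 with L7 controls only (14.7% and 18.4%), and 3 and 3 with same-titled controls averaged (8.73% and 9.13%), so calls over all genes rose too. By voom, an alternative chosen after seeing the data, they were 2 and 0 (2.85% and 1.73%). With the replicate block by source number they were 1 and 1 (1.14% and 0.508%; Hsc70-3 at an adjusted p of 0.0529), and with the replicate block by title number 0 and 0 (0.453% and 0.247%). Between same-numbered libraries, deviations from the group means correlated at 0.102 and 0.14 by source number (2 pairs). By title number the correlations ran from -0.0291 to 0.14. What the shared numbers stand for is not stated. The deviations of 2 knockdown libraries from their mean mirror each other, so these correlations cannot decide whether such libraries are paired. Atf6 passed at a mean of at least 50 (adjusted p = 0.0418), after quantile normalization (0.0479) and where same-titled controls were averaged (0.0265). In that averaged setting Xbp1 (-0.59, 0.0278) and crc (-0.57, 0.0199) passed as lower, as they did against the mean of both lane codes (0.0214 and 0.00234). With L5 controls only, Spase12 (limma, adjusted p = 0.0547) and Der-2 (0.0744) did not pass, unlike against L5 in the fit of 3 groups. Pseudocounts of 0.5 and 8, no filter and TMM scaling left the counts of 2 and 1. The planned fits with edgeR and DESeq2 were not run, and voom on the reads recovered from intact lines was run in their place. Counting error was at most 18.3% in a library (Edem1).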
